A study of Mus musculus with 6 samples.

Results

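Collagen genes encode the chains of the triple-helical proteins that give lung its tensile framework. Every probe set whose platform gene symbol had the form Col, number, a, number was taken, which gave 82 probe sets for 42 genes among 45037 probe sets for 18193 named genes. The genes were split by assembly type, as known from textbooks, into fibrillar collagens (11 genes), basement membrane collagens of type IV (6), network collagens of types VIII and X (3) and other collagens (22). The rule reads the gene symbol alone.

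Lungs came from adult BALB/c mice that all received 2 to 3 µg of IL-13 into the trachea once daily for 7 days and were killed 24 hours after the last dose, so there was no group without IL-13. IL-13 is a type 2 cytokine that needs the IL-4 receptor alpha chain to signal. WT mice carried both receptor alleles and no transgene, and IL4R KO mice carried neither allele and no transgene. IL4R KO + SMP8-IL4R mice also lacked both alleles and were +/- for a transgene in which the SMP8 promoter, described by the design text as specific to smooth muscle, drives the receptor. Each of the 3 groups had 2 Affymetrix mouse expression arrays, and each array read an RNA pool of 4 mice. Values are log2 RMA signals, in which a difference of 1 is a doubling. The spread given is that between pools, which already average over mice. The sex of the mice was not labelled.

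Collagen chains fold as trimers in the endoplasmic reticulum after prolines and lysines are hydroxylated, and fibrillar procollagens are then trimmed and crosslinked outside the cell. Types I, III and V form the interstitial fibrils made mainly by fibroblasts, type IV forms the sheet of basement membranes, type VI forms beaded filaments beside them, and type VIII forms lattices around vessels and smooth muscle. Deposition of fibrillar collagen beneath the airway epithelium is a known feature of asthma.

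Each gene was read from the probe set with its strongest mean signal, and it entered the test if that signal was above 7.10, the median of the whole table, on 2 or more arrays. Of the 42 collagen genes, 28 were tested. The other 14 were Col2a1, Col4a6, Col6a4, Col6a5, Col9a1, Col9a2, Col10a1, Col11a1, Col11a2, Col17a1, Col19a1, Col22a1, Col24a1 and Col26a1. Several of these are collagens of cartilage, and 8 of 10 genes of a cartilage marker list, among them Acan and Matn1, were also too dim to test. The tissue label was met by its markers: the 8 lung epithelial genes, including Sftpc, Ager and Scgb1a1, had array medians from 14.1 to 14.2. The array medians over all probe sets lay between 7.08 and 7.11. The pools of 1 genotype differed, over the 28 tested collagens, with an SD of 0.0706 in WT, 0.148 in IL4R KO and 0.107 in IL4R KO + SMP8-IL4R. IL4R KO pool 1 and WT pool 2 held liver transcripts, with hepatocyte marker medians over 9 genes of 10.2 and 9.38, while the remaining 4 arrays gave 5.76 to 6.06. The median of 3 Y-linked genes was 3.57 in IL4R KO pool 2 and 7.11 or more on every other array. Without both arrays with liver transcripts the counts of collagen genes called in the comparisons given below were 7, 0 and 2 in place of 11, 1 and 5.

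WT was compared with IL4R KO to ask which collagens followed the presence of the receptor in any cell under IL-13. The fibrillar genes Col1a1, Col1a2, Col3a1 and Col5a2, all 3 tested chains of type VI, the network collagen Col8a1 and the fibril-associated Col14a1 were higher in WT, by 1.29-fold to 2.50-fold. Col12a1 and Col23a1 were lower, and no type IV chain passed. Of 28 tested collagen genes, 9 rose and 2 fell (limma, adjusted p under 0.05 over 11860 genes), where 2.77% of all genes tested rose and 1.92% fell. At an unadjusted p under 0.05 the counts were 12 higher and 3 lower, where 9.75% and 12.8% of all genes reached it. Both WT pools lay above both IL4R KO pools for 16 collagens and below them for 6, where 22.5% and 29.1% of all genes did. The collagen median was 0.16 on the log2 scale against -0.02 for all genes tested. It was 0.07 over all 42 genes with no filter, and 0.11 without WT pool 2. In whole lung RNA, more cells of a type and more RNA per cell cannot be told apart.

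**Figure D1:**
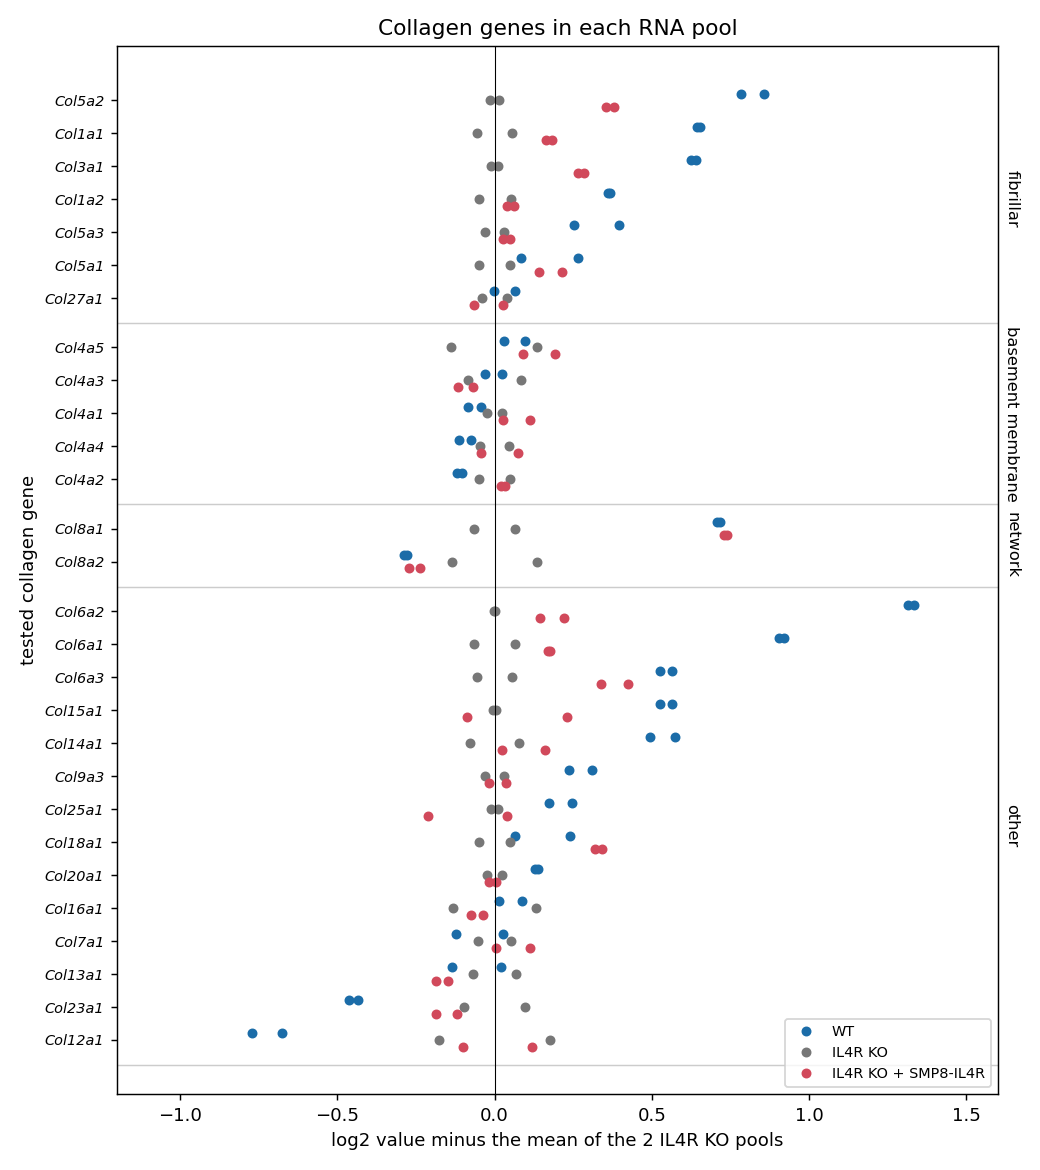
Each point is the log2 value of 1 tested collagen gene in 1 RNA pool minus the mean of both IL4R KO pools, on the horizontal axis, with genes in rows grouped by class and genotypes by colour. The WT points of Col6a2, Col6a1, Col5a2, Col1a1 and Col3a1 lie to the right of both other groups, and those of Col8a1 lie within 0.03 of the transgenic points.

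Among fibrillar collagens, 4 of 7 tested rose in WT and none fell (0 also at an unadjusted p under 0.05). Col1a1, which encodes the major chain of type I collagen, read 12.22 and 12.23 in the WT pools and 11.63 and 11.52 in IL4R KO. The WT pools lay above both IL4R KO pools, a rise of 0.65 ± 0.07 (SE, limma adjusted p = 0.00617) or 1.57-fold. Its partner chain Col1a2 read 13.32 and 13.31 in WT against 13.00 and 12.90, a rise of 0.36 ± 0.06 (limma adjusted p = 0.0359). Col3a1, the type III chain of elastic tissues and vessels, read 13.56 and 13.57 in WT against 12.95 and 12.92, a rise of 0.63 ± 0.06 (limma adjusted p = 0.0042). These 3 genes showed a gap between groups several times the gap between pools.

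Type V collagen seeds type I fibrils and limits their width. Its chain Col5a2 rose most of the fibrillar genes, from 10.98 and 10.95 in IL4R KO to 11.75 and 11.83 in WT, by 0.82 ± 0.06 (limma adjusted p = 0.00215) or 1.77-fold. The other type V chains had smaller differences that did not pass: 0.17 ± 0.08 for Col5a1 (adjusted p = 0.292) and 0.32 ± 0.07 for Col5a3 (adjusted p = 0.0690). The other Col5a1 probe sets gave 0.32 and 0.36 and did not pass over all probe sets either (limma adjusted p = 0.115 and 0.242). Col27a1, a fibrillar collagen known from cartilage, differed by 0.03 with a 95% interval from -0.14 to 0.20. The fibrillar median was 0.36 over the 7 tested genes. With a stricter filter, which left out Col5a3 and Col27a1, it was 0.63. It was 0.79 when each gene was the median of its probe sets, which left out Col5a3. Over all 11 fibrillar genes with no filter the middle value was 0.30, that of Col24a1, a gene too dim to test.

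Type VI gave the largest collagen difference. Col6a2 read 13.14 and 13.12 in WT against 11.80 and 11.81 in IL4R KO, a rise of 1.32 ± 0.06 (limma adjusted p = 0.00048) or 2.50-fold. Col6a1 read 12.88 and 12.90 against 12.04 and 11.91, a rise of 0.91 ± 0.07 (limma adjusted p = 0.00215) or 1.88-fold. Col6a3, whose long chain completes the type VI trimer, read 11.97 and 11.94 against 11.35 and 11.47, a rise of 0.55 ± 0.07 (limma adjusted p = 0.0149). No IL4R KO pool reached the lower WT pool in any of the 3 chains. Col6a4, outside the test for its low signal, read between 6.99 and 7.14 in all 6 arrays.

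Network and fibril-associated collagens moved in both directions. Col8a1, a short-chain collagen of vascular and airway smooth muscle, read 8.72 and 8.73 in WT against 7.95 and 8.08, a rise of 0.71 ± 0.07 (limma adjusted p = 0.00536) or 1.64-fold. Its relative Col8a2, best known from corneal endothelium, read 7.38 and 7.37 against 7.52 and 7.79, and its difference of -0.28 ± 0.10 did not pass (limma adjusted p = 0.166). Col10a1, the hypertrophic cartilage member of this class, was not tested and read 5.81 and 5.75 in WT, with 5.70 and 6.01 for IL4R KO and 5.42 in both transgenic pools. Col14a1, which coats fibrils, read 10.56 and 10.64 against 9.98 and 10.14, a rise of 0.53 ± 0.09 (limma adjusted p = 0.0288).

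Col12a1, which also coats type I fibrils, read 7.24 and 7.33 in WT against 7.83 and 8.18 in IL4R KO. It fell by 0.72 (SE 0.14, limma adjusted p = 0.0457), and its IL4R KO pools stood further apart than those of the other collagens that passed. The transmembrane collagen Col23a1 read 9.26 and 9.29 against 9.82 and 9.63 and fell by 0.45 (SE 0.08, limma adjusted p = 0.0423). Among the genes next to the threshold, the basement membrane zone collagen Col15a1 had a difference of 0.54 ± 0.11 (adjusted p = 0.0535) and Col9a3 one of 0.27 ± 0.06 (adjusted p = 0.0778). Col9a3 entered the test through its WT pools alone, at 7.10 and 7.17. It read 6.89 and 6.83 for IL4R KO and 6.90 and 6.84 in the transgenic pools. The filter thus favoured its being higher in WT, which also bears on the counts that include it.

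Type IV chains did not pass in either direction, and none had an unadjusted p under 0.05 among the 5 tested. Col4a1, the chain common to all basement membranes, read 13.12 and 13.16 in WT against 13.23 and 13.18, a difference of -0.06 with a 95% interval from -0.22 to 0.09. Col4a2 read 12.61 and 12.60 against 12.76 and 12.67, a difference of -0.11 with an interval from -0.26 to 0.04. Col4a5 read 10.92 and 10.99 against 10.75 and 11.03. The chains of the alveolar and glomerular network, Col4a3 and Col4a4, differed by -0.0033 and -0.09. The 5 intervals together ran from -0.27 to 0.32, so shifts of the size seen for Col1a1 lay outside them. The difference between the fibrillar and type IV classes was not tested.

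Many of these calls did not hold in every run with 1 array left out, where 1 group kept only 1 array. The differences of the collagens that had passed kept their direction in these runs. They were 0.59 to 0.70 for Col1a1, 0.62 to 0.64 for Col3a1 and 0.65 to 0.78 for Col8a1. Col5a2, Col6a1 and Col6a2 passed with any 1 of the 6 arrays left out, with differences of 0.78 to 0.86, 0.85 to 0.98 and 1.31 to 1.33. Without either WT pool these were the only 3 collagens that passed, out of 110 genes called without pool 1 and 120 without pool 2. Over the runs with 1 array left out, Col5a3, Col8a2 and Col9a3, which had not passed, differed by 0.25 to 0.40, -0.42 to -0.15 and 0.24 to 0.31. Col1a2, Col14a1, Col12a1 and Col23a1 also failed without either transgenic pool, which alters only the shared spread, while Col15a1 then passed (adjusted p = 0.0351). Without both arrays with liver transcripts Col6a3 (0.51), Col1a2 (0.42), Col14a1 (0.42) and Col23a1 (-0.37) failed.

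The size of a difference varied with the probe set read. In a fit over all 45037 probe sets, 14 of 82 collagen probe sets were higher in WT and none lower, against 0.999% and 0.577% of all probe sets. At an unadjusted p under 0.05, 30 were higher and 6 lower, against 8.17% and 7.88% of all. Those that passed were all 7 probe sets that read Col1a1, Col3a1, Col5a2 and Col6a1, with 1 of 3 for Col1a2, both for Col6a2, the single one for Col6a3, 2 of 3 for Col14a1 and 1 of 3 for Col8a1. The second Col3a1 probe set read 10.81 and 10.83 in WT against 9.44 and 9.71, a difference of 1.25 where the chosen one gave 0.63. The second Col1a2 probe set gave 0.98 where the chosen one gave 0.36, and the second of Col1a1 gave 1.01 where the chosen one gave 0.65. In these 3 genes the probe set with the higher signal gave the smaller difference, whereas in Col5a2 it gave 0.82 against 0.67. Col12a1 had 4 probe sets with differences of -0.72, -0.14, 0.24 and -0.22, none of which passed in this fit. The 3 of Col23a1 gave -0.45, -0.48 and -0.57, with adjusted p-values from 0.0606 to 0.0772 in the same limma fit.

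**Figure D2:**
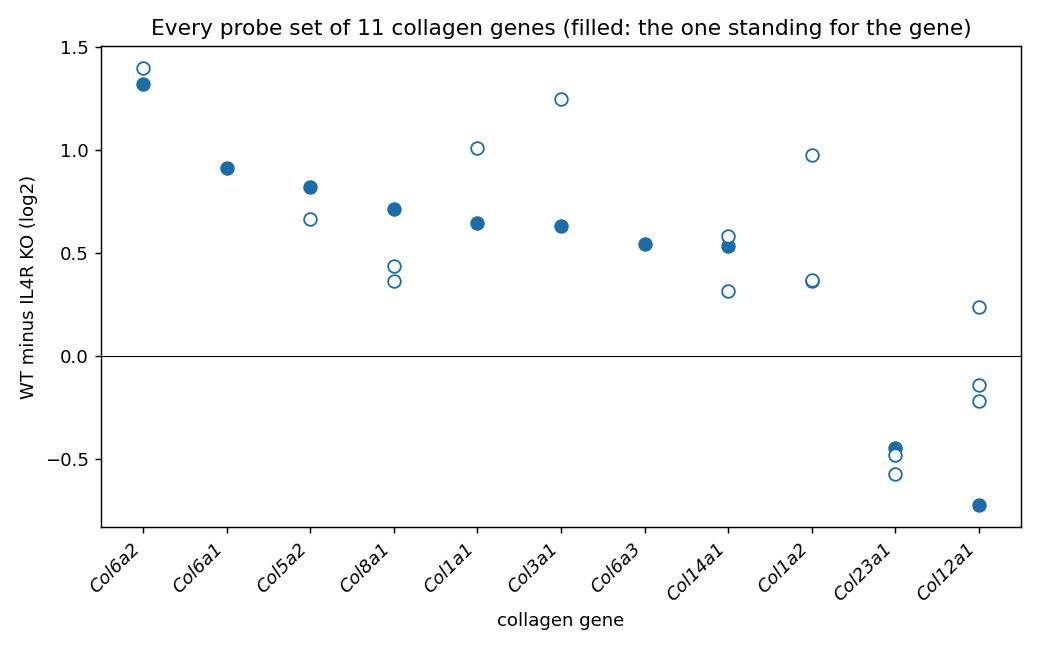
The vertical axis is the WT minus IL4R KO difference in log2 units and each circle is 1 probe set of a collagen gene that passed in a comparison; the filled circle stands for the gene. The open circles of Col1a1, Col3a1 and Col1a2 reach 1.01, 1.25 and 0.98, and the 4 circles of Col12a1 lie on both sides of 0.

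The smooth muscle receptor transgene was then set against IL4R KO. Col8a1 was the only collagen that passed. It read 8.74 and 8.75 in the transgenic pools and 7.95 and 8.08 in IL4R KO, a rise of 0.73 ± 0.07 (limma adjusted p = 0.0427) or 1.66-fold. Both transgenic pools lay above both IL4R KO pools and within 0.03 of the WT pools. The call was close to the threshold: it was lost without either transgenic pool (0.74 without pool 1 and 0.73 without pool 2, adjusted p = 0.498 and 0.271), and without either WT pool (0.73, adjusted p = 0.247). It held without IL4R KO pool 1 (0.67, adjusted p = 0.0491) or pool 2 (0.80, adjusted p = 0.0173). The other Col8a1 probe sets gave 0.39 and 0.44, and their median was 0.39 (adjusted p = 0.194).

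Of 28 tested collagens, 1 rose and none fell in the transgenic lungs, where 0.0759% and 0.0253% of all genes tested did. At an unadjusted p under 0.05 these counts were 8 and 1, where 6.94% and 5.45% of all genes reached it. The largest values after Col8a1 were those of Col6a3, 11.75 and 11.83 against 11.35 and 11.47 in IL4R KO (0.38 ± 0.07, limma adjusted p = 0.218), and Col5a2, 11.35 and 11.32 against 10.98 and 10.95 (0.37 ± 0.06, limma adjusted p = 0.197). Col18a1, the source of endostatin, read 9.65 and 9.63 against 9.36 and 9.26 (0.33 ± 0.08, limma adjusted p = 0.269). Col3a1 read 13.20 and 13.22 against 12.95 and 12.92 (0.27 ± 0.06, limma adjusted p = 0.219). In these 4 genes both transgenic pools lay above both IL4R KO pools, as they did for 10 of 28 collagens and 21.1% of all genes. For 3 collagens they lay below, as for 20.6% of all genes. The type I chains read 0.17 for Col1a1 and 0.05 for Col1a2, and neither passed. Their second probe sets gave 0.52 and 0.39, and that of Col3a1 gave 0.61, so the order of these genes depended on the probe set.

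Col6a2 and Col6a1 differed between transgenic and IL4R KO lungs by 0.18 and 0.17 (adjusted p = 0.331 and 0.386 in the limma fit). Col12a1 differed by 0.01, with a 95% interval from -0.33 to 0.35. Among type IV chains the largest difference was that of Col4a5, 0.14 with an interval from -0.11 to 0.40 where its second probe set gave -0.24, and 0 of 5 passed (0 also at an unadjusted p under 0.05). No collagen probe set passed in the fit over all probe sets, where 0.0155% of all were higher. At an unadjusted p under 0.05, 15 of 82 were higher and 5 lower, against 5.97% and 5.37% of all. The collagen median was 0.05 against -0.0047 for all genes tested. The fibrillar median was 0.17, and it was 0.37 with the median of probe sets and 0.05 without a filter.

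**Figure D3:**
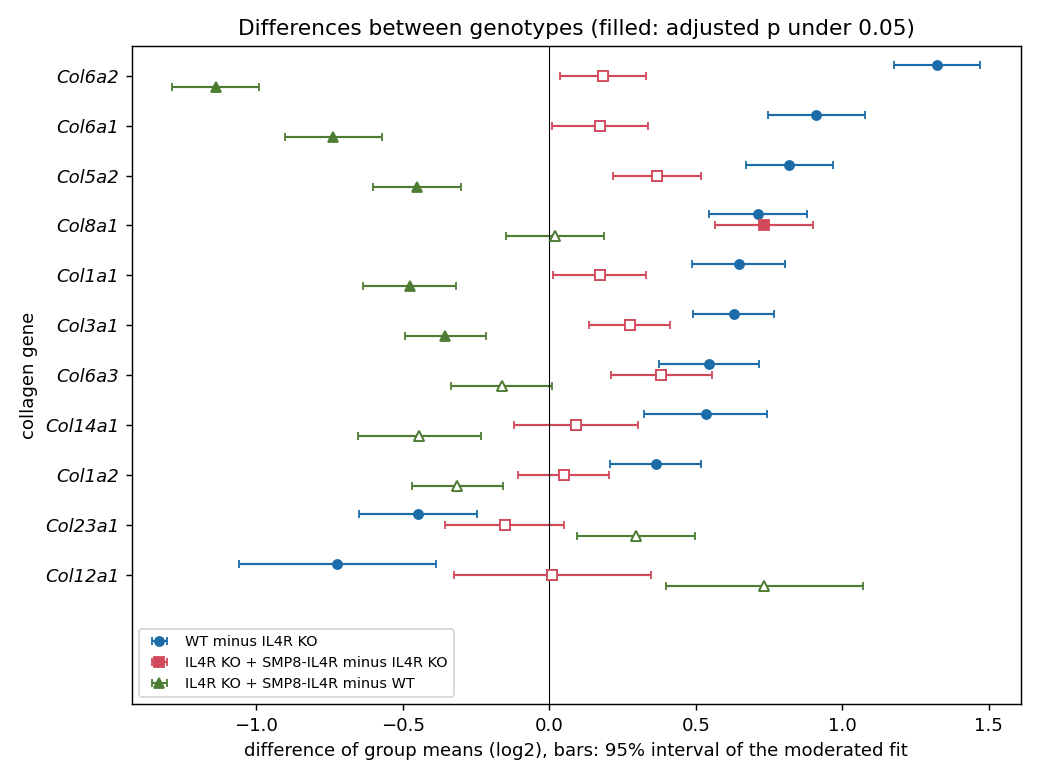
Points are differences of group means in log2 units for the 11 collagen genes that passed in any comparison, with 95% intervals from the moderated fit, and filled symbols passed at an adjusted p under 0.05. The transgenic minus IL4R KO square of Col8a1 (0.73) is the only filled square, and its transgenic minus WT triangle sits at 0.02.

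The transgenic lungs were compared with WT to ask which collagens differed when the receptor was driven by the smooth muscle promoter alone. Col1a1, Col3a1, Col5a2, Col6a1 and Col6a2 were lower in the transgenic lungs, and none was higher. That was 5 of 28 collagens, where 2.15% of all genes tested were lower and 0.691% higher; At an unadjusted p under 0.05 the counts were 2 higher and 11 lower, where 10.1% and 7.86% of all genes reached it. The groups did not overlap for 8 collagens that were higher and 16 that were lower, against 38.2% and 23.6% of all genes. The collagen median was -0.11 against 0.03 for all genes tested. This comparison shares its WT and transgenic arrays with those given above, so the values are not independent of them.

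Col6a2 read 11.95 and 12.03 in the transgenic pools and 13.14 and 13.12 in WT. It fell by 1.14 (SE 0.06, limma adjusted p = 0.000791), and passed with any 1 array left out, with differences from -1.18 to -1.10. Col6a1 read 12.15 and 12.16 against 12.88 and 12.90 and fell by 0.74 (SE 0.07, limma adjusted p = 0.00551). Col6a3 read 11.75 and 11.83 against 11.97 and 11.94, and its difference of -0.16, with a 95% interval from -0.34 to 0.01, did not pass (limma adjusted p = 0.299). The 3 chains of type VI thus stood at different distances from WT.

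Of the fibrillar collagens, Col1a1 fell by 0.48 (SE 0.07, limma adjusted p = 0.0214), from 12.22 and 12.23 in WT to 11.74 and 11.76. Col3a1 fell by 0.36 (SE 0.06, limma adjusted p = 0.0353). Col5a2 fell by 0.45 (SE 0.06, limma adjusted p = 0.0209) by its chosen probe set, while its second probe set gave -0.17, and the median of both, -0.31, did not pass (limma adjusted p = 0.101). Col1a2, at 12.99 and 13.01 in the transgenic pools, had a difference of -0.31 that did not pass by the chosen probe set (limma adjusted p = 0.0701), while its second probe set passed over all probe sets with -0.59 (limma adjusted p = 0.0318). Without either WT or either transgenic pool, Col6a2 was the only collagen that passed. With only the WT and transgenic arrays fitted 9 collagens passed, with Col12a1 and Col23a1 higher and Col14a1 and Col1a2 lower in the transgenic lungs. That fit called 910 of 11860 genes, where the main fit called 82 higher and 255 lower. Without both arrays with liver transcripts Col6a1 and Col6a2 passed.

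Col8a1 differed from WT by 0.02, with a 95% interval from -0.15 to 0.19. Col5a1 differed by 0.0024, with an interval from -0.21 to 0.21, while its other probe sets gave -0.19 and -0.24 and did not pass. Col12a1 read 8.13 and 7.91 in the transgenic pools against 7.24 and 7.33 in WT, a difference of 0.73 ± 0.14 that did not pass (limma adjusted p = 0.0567). Its other probe sets gave 0.05, -0.16 and 0.02. Col8a2 differed by 0.03. Type IV chains, with Col4a1 at 13.32 and 13.23, Col4a2 at 12.75 and 12.74 and Col4a5 at 10.98 and 11.08 in the transgenic pools, had differences from -0.09 to 0.14 (0 of 5 passed, and 0 at an unadjusted p under 0.05). Over all probe sets, 7 of 82 were lower and none higher, against 0.770% and 0.273% of all probe sets. At an unadjusted p under 0.05, 23 were lower and 4 higher, against 7.88% and 7.46% of all. Those that passed belonged to Col1a1, Col1a2, Col3a1, Col6a1, Col6a2 and Col14a1. Col1a2, Col3a1 and Col14a1 passed through their second probe sets only. The chosen Col3a1 probe set did not pass in this fit (limma adjusted p = 0.0904), where its second did (limma adjusted p = 0.0462). The second of Col14a1 read 8.65 and 8.79 against 9.45 and 9.54.

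**Figure D4:**
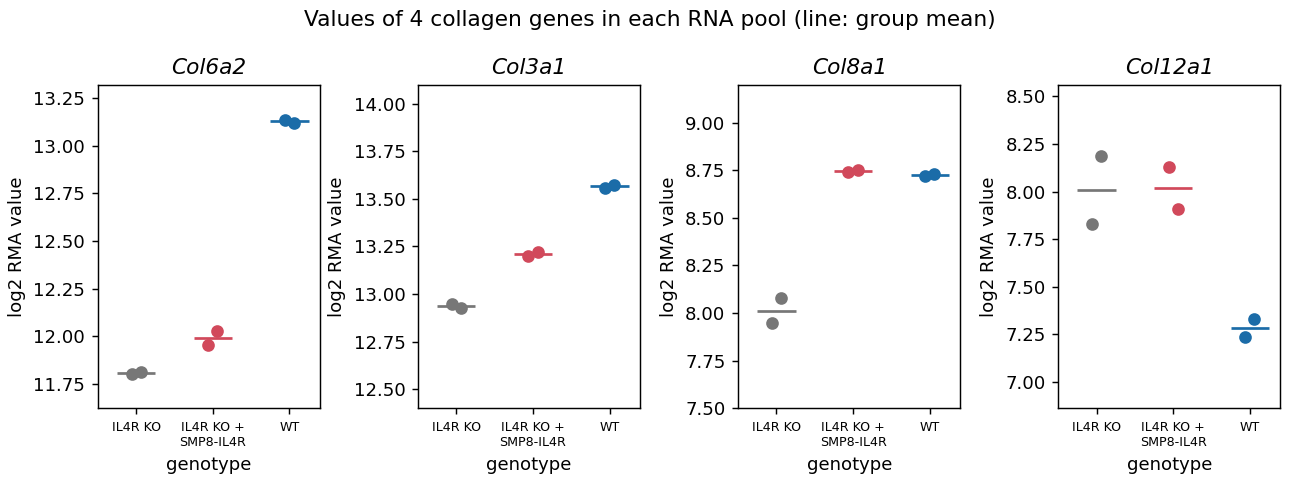
Log2 RMA values in each RNA pool for Col6a2, Col3a1, Col8a1 and Col12a1 by genotype, where points are pools and lines group means, on axes of equal span. Transgenic Col6a2 (11.95 and 12.03) stays near IL4R KO, Col3a1 lies between both groups, Col8a1 (8.74 and 8.75) is at the WT level and Col12a1 is at the IL4R KO level.

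Several collagen genes lie side by side in the genome. By gene order in the RefSeq annotation (GRCm38.p6), Col3a1 and Col5a2 are neighbours on chromosome 1 and Col6a1 and Col6a2 on chromosome 10, and all 4 rose in WT. The type IV chains Col4a1 and Col4a2 on chromosome 8 and Col4a3 and Col4a4 on chromosome 1 are neighbours too, and none of the 4 passed. The remaining neighbours were Col9a1 and Col19a1, Col6a4 and Col6a5, and Col4a5 and Col4a6. Of these only Col4a5 was tested, and it did not pass. RefSeq upstream sequences (GRCm38.p6) were matched by symbol for 33 of the 42 genes, with 36 entries. The 150 bases before the annotated start are shown for genes that rose together in WT, with capitals marking, in either orientation, the CCAAT box, the TATA box written TATAAA, and the GC box written GGGCGG. Col6a2 has a second annotated start, which is not shown.
Col1a2, chr6:4505468-4505617 (plus strand): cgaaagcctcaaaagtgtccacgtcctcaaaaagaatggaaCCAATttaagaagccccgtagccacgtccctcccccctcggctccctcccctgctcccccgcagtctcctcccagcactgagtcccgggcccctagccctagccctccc
Col3a1, chr1:45311388-45311537 (plus strand): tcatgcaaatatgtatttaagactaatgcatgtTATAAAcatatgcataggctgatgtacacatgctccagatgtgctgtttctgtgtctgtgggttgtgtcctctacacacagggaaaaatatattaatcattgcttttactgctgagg
Col6a1, chr10:76726045-76726194 (minus strand): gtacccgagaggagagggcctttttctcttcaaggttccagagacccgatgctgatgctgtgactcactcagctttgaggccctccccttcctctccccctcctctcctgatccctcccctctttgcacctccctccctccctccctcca
Col6a2, chr10:76623405-76623554 (minus strand): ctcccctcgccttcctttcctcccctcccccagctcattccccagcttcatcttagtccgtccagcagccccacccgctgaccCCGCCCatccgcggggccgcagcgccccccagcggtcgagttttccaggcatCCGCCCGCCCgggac
Col6a3, chr1:90843972-90844121 (minus strand): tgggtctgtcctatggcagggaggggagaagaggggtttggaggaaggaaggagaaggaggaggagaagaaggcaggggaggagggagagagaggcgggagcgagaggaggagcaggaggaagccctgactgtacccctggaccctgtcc
Col8a1, chr16:57754738-57754887 (minus strand): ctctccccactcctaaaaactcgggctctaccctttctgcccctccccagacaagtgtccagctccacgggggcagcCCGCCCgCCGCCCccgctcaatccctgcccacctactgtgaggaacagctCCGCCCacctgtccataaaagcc

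In the 250 bases before the start, CCAAT was found in 13 of 36 collagen entries against 33.8% of 32851 entries of all genes, TATAAA in 5 against 12.4%, and GGGCGG in 21 against 32.7%. Col1a2 held CCAAT from -109 to -105 relative to its start, Col3a1 held TATAAA from -117 to -112, and Col8a1 held GGGCGG on the opposite strand at -170 to -165, -73 to -68, -66 to -61 and -23 to -18. In Col6a2 the GGGCGG matches at -15 to -10 and -11 to -6 overlap. The palindrome TTCNNNNGAA, a spacing bound by STAT6, was found in 0 entries of collagens against 5.85% of all. The CArG box, read by serum response factor, was found in 1 entry, that of Col6a4, against 1.47%. Both strands were searched, and a match describes letters in the window.

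Enzymes that fold and modify collagen were measured beside the chains. Of 18 tested genes of folding and modification, 1 rose in WT against IL4R KO and none fell, where 2.77% and 1.92% of all genes did. At an unadjusted p under 0.05 there were 2 in each direction, where 9.75% of all genes were higher and 12.8% lower. P3h2, a prolyl 3-hydroxylase, read 9.12 and 9.09 in the WT pools against 8.61 and 8.69 for IL4R KO, with transgenic lungs at 8.65 and 8.66. It rose by 0.45 ± 0.06 in WT (limma adjusted p = 0.0174) and fell by 0.45 in transgenic lungs against WT (limma adjusted p = 0.0214). The telopeptide lysyl hydroxylase Plod2 had a WT difference of -0.27 (adjusted p = 0.0811), and the collagen chaperone Serpinh1 one of 0.11 (adjusted p = 0.614). The median of the list was 0.02.

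Of 7 tested genes of procollagen cleavage and crosslinking, none passed in any comparison, and none had an unadjusted p under 0.05. Pcolce, which speeds removal of the C-propeptide, differed by 0.15 in WT (adjusted p = 0.441) and 0.20 in transgenic lungs (adjusted p = 0.470) against IL4R KO. Lox, the lysyl oxidase, read 11.36 and 9.88 in the IL4R KO pools, a gap that left its difference of 0.14 with an SE of 0.45. Of 5 tested collagen receptors, none passed in any comparison (0 also at an unadjusted p under 0.05), with WT differences from -0.17 for Ddr1 to 0.07 for Itga1.

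Matrix proteins bound to fibrils moved both ways. Of 13 tested, 2 rose and 2 fell in WT against IL4R KO, where 2.77% and 1.92% of all genes did. The periostin gene Postn, a type 2 cytokine target that binds type I collagen, rose by 0.83 ± 0.06 (limma adjusted p = 0.00231) and fibronectin, Fn1, by 0.65 ± 0.09 (limma adjusted p = 0.0189). The decorin gene Dcn, a proteoglycan that coats fibrils, fell by 0.62 (limma adjusted p = 0.0149) and Tnxb by 0.50 (limma adjusted p = 0.017). In transgenic lungs against IL4R KO none passed (3 higher and 3 lower at an unadjusted p under 0.05, where 6.94% and 5.45% of all genes were), with 0.39 for Postn and 0.37 for Fn1. Against WT, Postn fell by 0.44 (limma adjusted p = 0.0258).

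Among 9 tested genes of collagen degradation, the stromelysin Mmp3 fell by 0.89 (limma adjusted p = 0.00247) and the collagenolytic protease Ctsk rose by 1.51 ± 0.24 (limma adjusted p = 0.0298) in WT against IL4R KO. In transgenic lungs Mmp3 was 0.76 above WT (limma adjusted p = 0.00526), Ctsk fell by 1.61 against WT (limma adjusted p = 0.0328) and the gelatinase Mmp2 by 0.47 (limma adjusted p = 0.0435). That was 1 of 9 in each direction in WT against IL4R KO (2.77% and 1.92% of all genes), and 1 higher and 2 lower in transgenic lungs against WT (0.691% and 2.15%). None passed in transgenic lungs against IL4R KO (1 in each direction at an unadjusted p under 0.05, where 6.94% and 5.45% of all genes were). The inhibitor gene Timp1 read 10.80 and 9.65 in the transgenic pools, and its difference of 1.27 ± 0.41 from IL4R KO did not pass (limma adjusted p = 0.331).

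Cell type markers moved with some of these results. Of 10 smooth muscle genes, 6 rose in WT and 4 in transgenic lungs against IL4R KO, where 2.77% and 0.0759% of all genes did, and none fell. Their median per array was 10.6 for each WT pool, 10.1 and 10.2 for IL4R KO, and 10.8 and 10.9 for the transgenic pools. They were thus above IL4R KO in the groups in which Col8a1 was. In transgenic lungs against WT, 1 of the 10 rose (0.691% of all genes), all 10 differences were above 0 and their median was 0.18, where Col8a1 differed by 0.02. Of 7 pericyte genes, 1 rose and 1 fell in WT against IL4R KO, where 2.77% and 1.92% of all genes did. In transgenic lungs against IL4R KO 1 rose, where 0.0759% of all genes did. The riser in both was Rgs5, at 10.19 and 10.23 in WT, 10.27 and 10.38 in transgenic lungs and 9.20 and 9.10 for IL4R KO. The list as a whole did not follow Rgs5 in WT. There 2 of 7 differences from IL4R KO were above 0, with a median of -0.12. In transgenic lungs 5 of 7 were above 0 against IL4R KO, with a median of 0.03. Against WT, 1 pericyte gene, Abcc9, rose in transgenic lungs (0.691% of all genes), and all 7 differences were above 0, with a median of 0.28. Of 9 tested fibroblast markers, none rose and 1, Dcn, fell in WT against IL4R KO, where 2.77% and 1.92% of all genes did. None passed in the other comparisons, and Pdgfra read between 12.44 and 12.53 in all arrays. The fibroblast array medians were 11.26 and 11.42 for WT, both below the 11.52 and 11.47 for IL4R KO, while the transgenic pools, at 11.36 and 11.54, overlapped both groups. Gene by gene the list moved both ways: 5 of 9 WT differences from IL4R KO were above 0, with a median of 0.03. Of 7 cardiac muscle genes 5 fell, of 6 mesothelial genes 2 fell and of 3 tested adipocyte genes 3 fell in WT against IL4R KO, with medians of -0.80, -0.35 and -1.70, where 1.92% of all genes fell. In transgenic lungs against IL4R KO, 2 adipocyte genes fell (0.0253% of all genes), with a list median of -1.03. No cardiac or mesothelial gene passed, with medians of -0.37 and -0.19. Against WT, 1 adipocyte gene rose, 1 cardiac gene rose and 1 fell, and 1 mesothelial gene fell, where 0.691% of all genes rose and 2.15% fell. The medians of these lists were 0.54, 0.40 and 0.18. All 3 adipocyte, 6 of 7 cardiac and 5 of 6 mesothelial differences from WT were above 0. Of 7 endothelial genes 1 rose in WT against IL4R KO (2.77% of all genes), with a median of -0.07. In transgenic lungs 1 fell against WT (2.15% of all genes), with a median of 0.08, and none passed against IL4R KO. RMA signals have no 0, so absence of a marker could not be read. The part of these cell types in the collagen differences was not tested.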

How the data were processed

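The submitters' processing notes name RMA, with no version given in the sources used here. The authors deposited 1 log2 value per probe set and array, which RMA had corrected for background, quantile normalized and summarised. No detection calls were used. RMA levels of different probe sets were not compared as abundances. Of 45101 probe sets, 64 array controls were left out. Of the rest, 34945 probe sets named 1 gene, 932 several and 9160 none in the platform annotation. The build of the arrays is not given in the sources used here. Arrays have no read depth, and 2 arrays per group limit the precision.

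The test was a linear model (limma 3.58.1, R 4.3.3) with a mean for each genotype and a spread shared by the 6 arrays (3 residual and 2.86 prior degrees of freedom), and Benjamini-Hochberg adjustment over 11860 genes or, separately, 45037 probe sets. All adjusted p-values come from these fits, and intervals are 95% moderated intervals. A difference subtracts the reference group, named last. Data were simulated like the WT to IL4R KO comparison, with 200 of 11860 genes changed. Of genes changed by 0.5, 1 and 2 on the log2 scale, 51.6%, 86.4% and 97.7% were recovered, and 3.18% of calls were false. These shares hold for that number of changed genes, and the other comparisons were not simulated.

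Values in every array are given for each collagen that passed, the 3 brightest of a class and the largest difference of a class, and in other lists up to 4 genes with the lowest p; Serpinh1 and Lox were named after their values were seen. Members and lists were chosen with earlier results of these data known. Alternatives were the filter, the probe set, the block by replicate number, the groups fitted, the moderation, the normalization and each array left out. Promoter motifs were counted with Python 3.11.15.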

Additional observations from a re-analysis of the deposited data

How the results depend on the processing

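The calls of collagen genes (11 for WT against IL4R KO, 1 for transgenic against IL4R KO, 5 for transgenic against WT) changed with the settings, and differences changed with the probe set read. With the median of probe sets, WT against IL4R KO gave 0.98 for Col1a2, 0.94 for Col3a1 and 0.37 for Col8a1. No called gene changed direction under any alternative run. With 1 array left out the counts ran from 3 to 14, from 0 to 1 and from 1 to 9, those of probe sets from 2 to 15, from 0 to 2 and from 2 to 9, and the collagen medians from 0.11 to 0.24, from 0.04 to 0.08 and from -0.13 to -0.11. For WT against IL4R KO, 7 genes and 7 probe sets passed without both arrays with liver transcripts, 9 probe sets passed with only the groups compared, and the median was 0.073 with no filter. For transgenic against IL4R KO, 0 collagen genes passed with no filter, a stricter filter (which left Col8a1 out), the median of probe sets, arrays centred again on their median, a further quantile normalization, only the groups compared, the probe set fit, or without both arrays with liver transcripts, and 1 probe set passed with an intensity trend and robust moderation. For transgenic against WT, 8 collagen genes, out of 441 genes called, and 12 probe sets passed with the intensity trend. With only the groups compared 9 collagen genes passed, out of 910 genes called. With the replicate number as a block, 8, 0 and 5 genes and 15, 0 and 4 probe sets passed. Col1a2, Col12a1 and Col23a1 were then lost in WT against IL4R KO (adjusted p = 0.0658, 0.0643 and 0.0547), Col8a1 in transgenic against IL4R KO (adjusted p = 0.0795), and Col3a1 was lost (adjusted p = 0.0782) and Col14a1 gained (adjusted p = 0.0468) in transgenic against WT. Deviations of same-numbered arrays correlated at -0.509 for WT and IL4R KO over 11860 genes. The values were -0.0875 for WT and transgenic and 0.121 for IL4R KO and transgenic lungs. Liver transcripts lay in differently numbered pools of WT and IL4R KO, and each group has only 2 arrays. These correlations therefore cannot decide whether the numbers pair the arrays. Only probe sets without the endings x_at or s_at gave the same 11, 1 and 5 calls. With 2 arrays per group, a difference near 0.3 passes only where pools lie close together.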
